A study of Ovis aries with 6 samples.

Results

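The genes described here are the amino acid transporter families of sheep longissimus muscle, that is the solute carrier families SLC1, SLC3, SLC6, SLC7, SLC36, SLC38 and SLC43. The families were chosen with earlier results of these data known. Within them, rows were taken by name, as every row of the count table whose symbol belongs to one of these families. The creatine carrier SLC6A8 was left out, and 49 of 23144 rows are described. Of these rows, 48 encode carriers or their subunits, and the remaining row, SLC7A6OS, is a neighbour of SLC7A6 that shares its name but is not a carrier. The carriers that the files list under older names, such as LAT1 and LAT2, are not among the 49 rows and are described separately.

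Longissimus muscle was taken from 3 sheep of the breed Qianhua Mutton Merino (QHMM) and from 3 of the breed Small Tail Han (STH), all females aged 1 year kept in the same environment. Each animal gave 1 library of poly(A) RNA, which was read on an Ion Proton instrument, and fold changes are given as STH vs. QHMM. The study names no treatment, and it took the live weight of both breeds after a fast, before slaughter. Breed is the only difference that the labels record between the groups.

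Amino acids cross cell membranes on carriers, and muscle holds several kinds that work together. Sodium-driven carriers such as SLC38A2 concentrate small neutral amino acids in the cell, exchangers such as SLC1A5 and the SLC7 light chains trade one amino acid for another, and uniporters such as SLC43A2 let leucine and its relatives pass in either direction. Muscle takes up branched-chain amino acids, releases glutamine and alanine, and stores taurine and carnosine, and leucine and arginine that reach the cytosol or the lysosome switch on mTORC1, the kinase complex that drives protein synthesis.

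The libraries held between 10982191 and 14334544 counts on genes. The first principal component carried 44.1% of the variance and separated the breeds, and STH replicate 2 lay farthest from QHMM on it. QHMM replicate 2 and STH replicate 3 stood apart from the other libraries on the second component (19.1%). Markers of skeletal muscle were abundant in every library, apart from TNNT3, which was listed at 0 in all 6. Between the breeds, 4 of 8 slow-fibre markers and 4 of 7 adipocyte markers were called lower in STH, whereas no marker of endothelium, fibroblasts, leukocytes, Schwann cells or smooth muscle was called. Of the satellite cell markers, 1 of 3, CDH15, was called higher (log2 fold change 1.12). The others did not rise with it, PAX7 being at -1.43 (FDR 0.294 by edgeR) and MYF5 at -0.008. The level per length of a gene is its RPKM (reads scaled by gene length and library total) divided by the TMM normalization factor of the library. Summed over the slow-fibre markers, this level ranged from 19494 to 23299.5 in QHMM and from 6726 to 10271 in STH, and those of the fibroblast markers from 618 to 1018 in QHMM and from 287 to 557 in STH. Their part in the transporter results was not tested, and in bulk tissue fewer cells of a type and less RNA per cell cannot be told apart.

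Of the 49 rows, 22 had enough counts to be tested, and 21 of these encode carriers. Up-regulated in STH vs. QHMM were SLC43A2, a uniporter of branched-chain amino acids, SLC7A6, an exchanger of arginine and neutral amino acids, and SLC7A6OS. Down-regulated was SLC7A10, an exchanger of small neutral amino acids. These are 4 of the 22 tested rows (18.2%), against 3.45% of all 12506 genes tested, where a gene was called when edgeR's quasi-likelihood test gave a false discovery rate (FDR, Benjamini-Hochberg adjusted) below 0.05 and a fold change above 1.5. Among all genes, 1.62% were called higher and 1.83% lower in STH, and among the 22 tested rows 3 and 1. Of these 3, SLC7A6OS is not a carrier, and it overlaps SLC7A6 in the annotation. The families were chosen with earlier results of these data known, so the shares of these rows describe them and test nothing. Only SLC43A2 was called without QHMM replicate 1, 2 or 3, and 2 rows (SLC43A2 and SLC7A6) were called without STH replicate 2 or without STH replicate 3.

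An unadjusted p below 0.05 was reached by 8 of the 22 rows (36.4%), against 19.2% of all genes. The 3 libraries of one breed lay wholly above those of the other for 9 rows (40.9%), against 24.7% of all genes. The direction was divided, with 11 log2 fold changes above 0 and 11 below 0 and a median of 0.10, against 0.02 over all genes. The median size of the change without its sign was 0.43 on the log2 scale, against 0.34 over all genes. The 14 rows with a p of 0.05 or more had log2 fold changes between -0.60 and 0.68 and FDR values between 0.421 and 0.966. STH replicate 2 was the STH library farthest from QHMM for 7 of the 8 rows with a p below 0.05, against 58.1% of the 2395 genes with such a p.

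**Figure D1:**
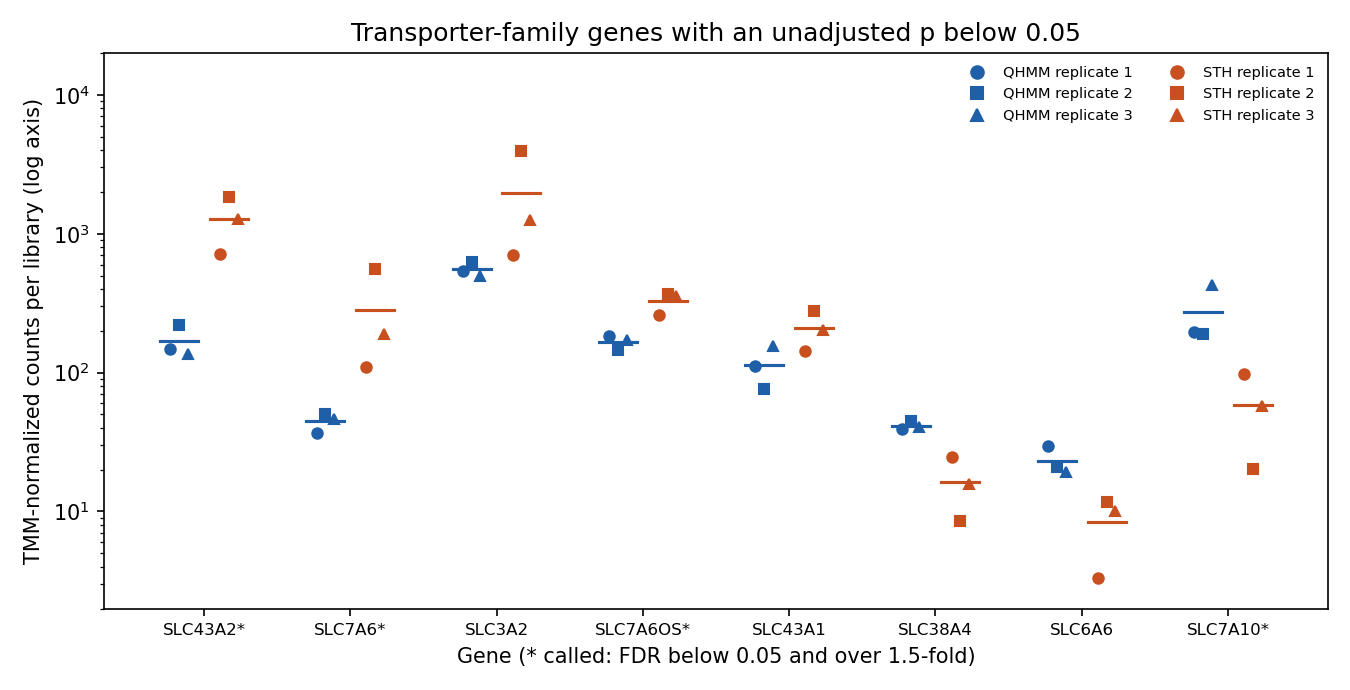
Normalized counts on a log axis of the 8 transporter-family rows with an unadjusted p below 0.05, one symbol per library, with the mean of each breed as a line. The breeds do not overlap for 7 of the 8 rows, SLC43A1 being the exception, and STH replicate 2 (orange square) is the extreme STH library for all but SLC6A6.

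In the SLC43 family, SLC43A2 gave the clearest change among the carriers that were higher in STH. SLC43A2 (LAT4) moves branched-chain amino acids, phenylalanine and methionine down their gradients without sodium. Normalized counts, which are counts scaled to one effective library size, were for SLC43A2 148, 220.0 and 137 in replicates 1, 2 and 3 of QHMM, and 709, 1847 and 1284 in those of STH. The lowest STH library was thus over 3 times the highest QHMM library, and STH replicate 2 was highest. For SLC43A2 the log2 fold change was 2.93 (SE 0.36, 95% interval 2.14 to 3.72), an increase of 7.6-fold, with an FDR of 0.0045 in the edgeR test. It was called in each of the 6 fits that left out 1 library, with log2 fold changes between 2.55 and 3.20.

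SLC43A1 (LAT3) carries much the same amino acids as SLC43A2. Normalized counts of SLC43A1 were 112, 76.1 and 154 in replicates 1, 2 and 3 of QHMM, and 144, 279.9 and 204 in those of STH, so that QHMM replicate 3 lay above STH replicate 1. Its log2 fold change was 0.87 (SE 0.33) with an FDR of 0.18 by edgeR, which did not pass the threshold. SLC43A3, which is known as a carrier of purine bases rather than of amino acids, had normalized counts of 114, 78.4 and 75.1 in the QHMM libraries and 109, 130.3 and 87.4 in the STH libraries and a log2 fold change of 0.28. The summed level per length of the 3 SLC43 carriers was 15.1 ± 0.277 in QHMM and 69.1 ± 28.5 in STH (mean ± SD, n = 3).

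The SLC7 light chains work only when bound to a heavy chain, and the SLC7 family held called members in both directions. SLC7A6 (y+LAT2) releases arginine from the cell in exchange for neutral amino acids and sodium. Normalized counts of SLC7A6 were 36.6, 50.3 and 46.7 in replicates 1, 2 and 3 of QHMM, and 109, 553 and 190.4 in those of STH. All STH libraries lay above all QHMM libraries, and STH replicate 2 was about 3 times as high as the next STH library. For SLC7A6 the log2 fold change was 2.67 (SE 0.53, 95% interval 1.5 to 3.84), with an FDR of 0.0251 by edgeR. Without STH replicate 2 it was 1.73 with an FDR of 0.0358, and the call was lost without QHMM replicate 1, 2 or 3 (FDR 0.0905, 0.0738 and 0.0831).

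SLC7A6OS encodes a protein tied to the nuclear import of RNA polymerase II, and in the RefSeq annotation of the ARS-UI_Ramb_v3.0 assembly it lies next to SLC7A6 and overlaps it. Normalized counts of SLC7A6OS were 183, 145 and 171 in replicates 1, 2 and 3 of QHMM, and 262, 365 and 356 in those of STH, with no overlap between the breeds. For SLC7A6OS the log2 fold change was 0.98 (SE 0.23), with an FDR of 0.0484 by edgeR. The call was lost in 5 of the 6 fits that left out 1 library, where the FDR lay between 0.0969 and 0.156, and kept without STH replicate 1. Whether the counting used the strand of the reads is not given in the sources used here, so reads from the overlap of SLC7A6 and SLC7A6OS cannot be told apart. The next gene beyond SLC7A6 in that annotation, the lysosomal phospholipase gene PLA2G15, had a log2 fold change of 1.04 with an FDR of 0.0904, and PRMT7 on the side of SLC7A6OS had 0.34 with an FDR of 0.479.

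SLC7A10 (Asc-1) exchanges small neutral amino acids, D-serine among them, and is also known as a surface marker of white adipocytes. Normalized counts of SLC7A10 were 196, 191 and 429 in replicates 1, 2 and 3 of QHMM, and 97.4, 20.3 and 57.1 in those of STH. QHMM replicate 3 was more than double the other QHMM libraries, and the highest STH library was below the lowest QHMM library. For SLC7A10 the log2 fold change was -2.2 (SE 0.50, 95% interval -3.32 to -1.09), with an FDR of 0.0423 by edgeR. The call was lost in 5 of the 6 fits that left out 1 library: the FDR was 0.0674, 0.0628 and 0.128 without QHMM replicates 1, 2 and 3, 0.0668 without STH replicate 2 and 0.0900 without STH replicate 3. It was kept without STH replicate 1, at a log2 fold change of -2.83 and an FDR of 0.0189.

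Adipocyte markers moved in the same direction as SLC7A10. ADIPOQ, PLIN1, CIDEC and LEP, 4 of the 7 markers, were called lower in STH, whereas FABP4 had a log2 fold change of -0.04. The summed level per length of the 7 markers was 407, 101 and 148 in replicates 1, 2 and 3 of QHMM, and 134, 76.6 and 61.5 in those of STH. It was highest in QHMM replicate 1, whereas SLC7A10 was highest in QHMM replicate 3. CEBPA, a regulator of fat cell genes that lies beside SLC7A10 in the annotation, had a log2 fold change of -1.25 with an FDR of 0.184, and LRP3, which overlaps SLC7A10 there, had 0.13 with an FDR of 0.893. The part of fat cells in the lower SLC7A10 was not tested.

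SLC7A7 (y+LAT1), which carries out the same exchange as SLC7A6, differed less than the spread between replicates. Normalized counts of SLC7A7 were 63.4, 48 and 48.7 in the QHMM libraries and 47.9, 57.7 and 47 in the STH libraries, with a log2 fold change of -0.07 (95% interval -0.71 to 0.57). SLC7A11, the light chain of the cystine and glutamate exchanger, had at most 2 counts in any library, and SLC7A9 and SLC7A13 had none. Among the cationic amino acid carriers of the family, SLC7A2 (CAT-2) was the main one measured, with normalized counts of 174, 171 and 166 in the QHMM libraries and 144, 315 and 150.1 in the STH libraries and a log2 fold change of 0.25 (95% interval -0.44 to 0.94). SLC7A3 and SLC7A14 had no count.

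SLC3A2 (4F2hc, CD98) is the heavy chain that brings these light chains to the cell surface. By the mean over all 6 libraries it had the highest level per length of all 49 rows, but not in every library. In QHMM, SLC1A5 was above it in replicate 1 (23.4 against 19.8) and SLC7A10 in replicate 3 (19.9 against 18.3). In STH, SLC43A2 was above it in replicate 1 (31.4 against 25.8) and replicate 3 (56.9 against 46.5). Normalized counts of SLC3A2 were 539, 622 and 497 in replicates 1, 2 and 3 of QHMM, and 701, 3934 and 1265 in those of STH. The breeds did not overlap, but STH replicate 1 was close to the QHMM libraries and STH replicate 2 was about 3 times STH replicate 3. For SLC3A2 the log2 fold change was 1.83 (SE 0.51, 95% interval 0.70 to 2.96), and the FDR by edgeR of 0.0787 did not pass the threshold. Without STH replicate 2 the log2 fold change was 0.82 (FDR 0.222), and without STH replicate 1 it was 2.22 and passed (FDR 0.0176). SLC3A1, the other heavy chain, had at most 1 count in any library.

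The light chains that the files name LAT1 and LAT2 correspond to SLC7A5 and SLC7A8 by the symbol match that the files give, and both pair with SLC3A2. LAT2 had normalized counts of 299, 169.7 and 75.1 in replicates 1, 2 and 3 of QHMM, and 265, 4391 and 1212 in those of STH. STH replicate 1 lay within the range of QHMM, and STH replicates 2 and 3 lay far above it. For LAT2 the log2 fold change was 3.43 (SE 0.84) with an FDR of 0.0529 by edgeR, and it was not called. Without STH replicate 2 the log2 fold change of LAT2 was 2.01 (FDR 0.151), and robust dispersions gave an FDR of 0.219. LAT2 was called without STH replicate 1 (FDR 0.00737 by edgeR) and by DESeq2 (FDR 0.0309). By edgeR it was also called without a filter on low counts (FDR 0.00322) and with at least 10 counts in every library (FDR 0.0469). LAT1, the light chain most often tied to leucine uptake and mTORC1, had normalized counts of 11.6, 11.7 and 11.2 in the QHMM libraries and 12.4, 15 and 7.84 in the STH libraries, with a log2 fold change of 0.03 (95% interval -0.99 to 1.06).

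The makeup of the light chains differed between the breeds and among the STH libraries. Summed over SLC7A6, SLC7A7, SLC7A10, SLC7A11, LAT1 and LAT2, the level per length was 18.5, 15.4 and 24.5 in replicates 1, 2 and 3 of QHMM, and 14.1, 102 and 32.5 in those of STH. SLC7A10 made up 49.0%, 57.6% and 81.5% of this sum in QHMM and 32.0%, 0.923% and 8.17% in STH. LAT2 made up 32.6%, 22.3% and 6.19% in QHMM and 37.8%, 86.7% and 75.3% in STH. SLC7A6 took 3.43% to 5.88% in QHMM and 9.73% to 13.9% in STH. The level of SLC3A2 in the same libraries was 19.8, 22.9 and 18.3 in QHMM and 25.8, 145 and 46.5 in STH, so that STH replicate 2 was highest for the heavy chain and for the summed light chains.

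**Figure D2:**
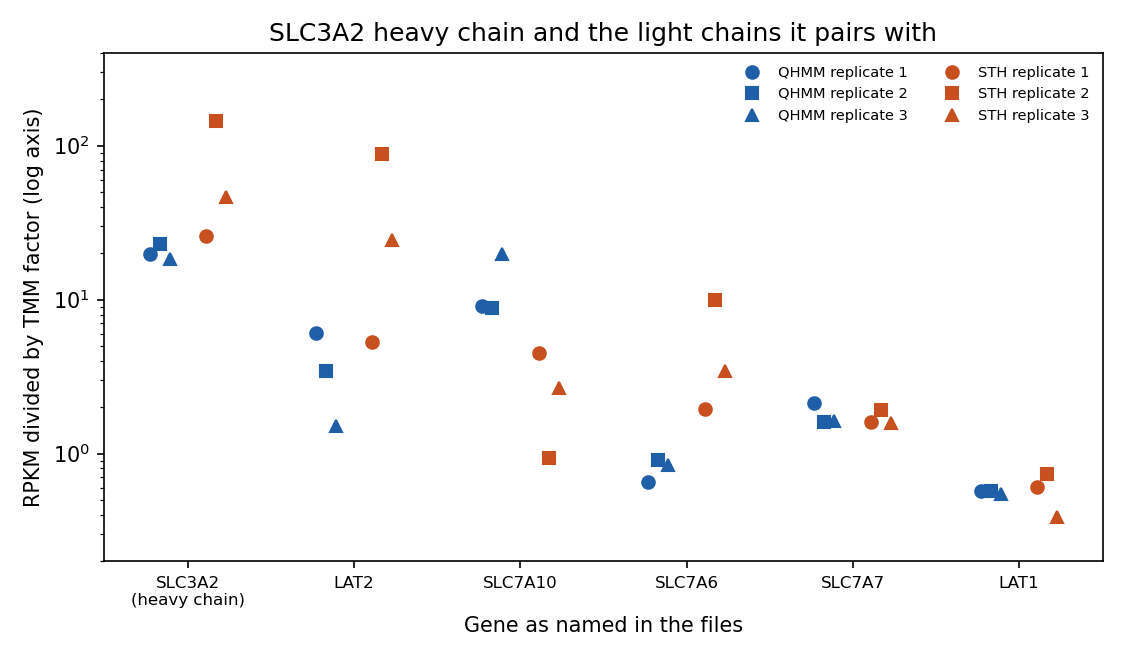
Level per length (RPKM divided by the TMM factor, log axis) of the heavy chain SLC3A2 and of 5 light chains, one symbol per library. STH replicates 2 and 3 lie above every QHMM library for SLC3A2, LAT2 and SLC7A6, all STH libraries lie below every QHMM library for SLC7A10, and the breeds overlap for SLC7A7 and LAT1.

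None of the SLC6 rows described was called by edgeR or DESeq2, and 1 of the 2 tested, SLC6A6, had an unadjusted p below 0.05. SLC6A6 is the taurine carrier of muscle. Normalized counts of SLC6A6 were 29.5, 21.1 and 19.3 in replicates 1, 2 and 3 of QHMM, and 3.3, 11.8 and 10.1 in those of STH. Counts were low and the breeds did not overlap, with STH replicate 1 lowest. For SLC6A6 the log2 fold change was -1.5 (SE 0.52), and the FDR by edgeR of 0.148 did not pass. SLC6A12 (BGT1), a carrier of betaine and GABA, was too low to be tested, with 8, 5 and 6 counts in QHMM and 1, 0 and 0 in STH. Its 19 counts in QHMM and 1 in STH gave a ratio of 19.5-fold lower in STH after scaling by library, with a 95% interval of 3.1 to 811 that covers counting error only. In the edgeR fit without a filter on low counts, its log2 fold change was -3.88 with an FDR of 0.0737, which did not pass. 

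SLC6A9 (GLYT1), a glycine carrier, was tested too, with normalized counts of 14.3, 12.9 and 11.2 in the QHMM libraries and 14.9, 9.62 and 12.3 in the STH libraries and a log2 fold change of -0.05 (95% interval -1.03 to 0.93). SLC6A17 and SLC6A20 were detected but too low to test, with 2 to 13 and 0 to 7 counts per library. The serotonin carrier SLC6A4, which the files list as SERT and which is not among the 49 rows, had normalized counts of 22.3, 12.9 and 16.2 in the QHMM libraries and 69.3, 48.1 and 42.6 in the STH libraries. It was up-regulated in STH, at a log2 fold change of 1.62 (FDR 0.0438 by edgeR, SE 0.37), but the call was lost without any 1 of the 6 libraries (FDR 0.0541 to 0.127).

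None of the 7 tested SLC38 carriers was called by edgeR or by DESeq2, and 1 of them, SLC38A4, had an unadjusted p below 0.05. SLC38A2 (SNAT2), a system A carrier of alanine and glutamine, had normalized counts of 969.5, 662 and 690.3 in replicates 1, 2 and 3 of QHMM, and 789, 412 and 505 in those of STH. The breeds overlapped, STH replicate 1 lying above QHMM replicates 2 and 3, and the log2 fold change was -0.44 (95% interval -1.05 to 0.17, FDR 0.421 by edgeR). SLC38A4, a system A carrier that also takes cationic amino acids, had normalized counts of 39.3, 44.5 and 40.6 in replicates 1, 2 and 3 of QHMM, and 24.8, 8.55 and 15.7 in those of STH. The breeds did not overlap, and the log2 fold change of -1.32 (SE 0.42) had an FDR by edgeR of 0.117, which did not pass.

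SLC38A1 (SNAT1) had only 2 to 19 counts per library, with a log2 fold change of -0.60 (95% interval -2.22 to 1.03). In the RefSeq order SLC38A4, SLC38A2 and SLC38A1 are consecutive genes, and all 3 had log2 fold changes below 0, although SLC38A1 was at 0.03 without QHMM replicate 1. SLC38A3 (SNAT3), the system N glutamine carrier, had normalized counts of 8.93, 25.7 and 29.4 in the QHMM libraries and 39.6, 29.9 and 32.5 in the STH libraries. Its breeds did not overlap, but QHMM replicate 1 was far below the other libraries, and the log2 fold change of 0.68 (SE 0.45) had an FDR of 0.455 by edgeR. The summed level per length of the system A and N carriers was 15.6 ± 2.46 in QHMM and 12 ± 3.97 in STH (mean ± SD, n = 3).

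SLC38A9 sits in the lysosomal membrane and passes the arginine signal to mTORC1. Normalized counts of SLC38A9 were 42.9, 41 and 55.8 in replicates 1, 2 and 3 of QHMM, and 67.7, 71.6 and 42.6 in those of STH, with a log2 fold change of 0.38 (95% interval -0.32 to 1.08). The breeds overlapped because STH replicate 3 lay among the QHMM libraries. SLC38A7, a lysosomal glutamine carrier, and SLC38A10 had log2 fold changes of -0.22 and -0.23, with FDR values of 0.681 and 0.628 by edgeR. Normalized counts of SLC38A10 were 254, 239 and 249 in the QHMM libraries and 257, 177 and 196 in the STH libraries. SLC36A1 (PAT1), a proton-coupled carrier of lysosomes, had normalized counts of 57.1, 59.7 and 41.6 in the QHMM libraries and 71, 74.8 and 63.9 in the STH libraries, and although the breeds did not overlap, the log2 fold change of 0.40 (SE 0.28) had an FDR of 0.475 by edgeR. SLC36A4 had a log2 fold change of 0.31 (95% interval -0.92 to 1.55).

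Neither of the SLC1 exchangers of neutral amino acids was called or had an unadjusted p below 0.05, with edgeR, and DESeq2 called 0. SLC1A5 (ASCT2), the glutamine exchanger that supplies SLC3A2 complexes with an exchange substrate, had normalized counts of 832, 379 and 298 in replicates 1, 2 and 3 of QHMM, and 287, 547 and 298 in those of STH. QHMM replicate 1 was more than double the other QHMM libraries, and the remaining libraries of the breeds overlapped. For SLC1A5 the log2 fold change was -0.42 (95% interval -1.28 to 0.44, FDR 0.606 by edgeR), and it turned to 0.13 without QHMM replicate 1. SLC1A4 (ASCT1), which exchanges alanine, serine, cysteine and threonine, had normalized counts of 62.5, 65.5 and 109.6 in the QHMM libraries and 89.1, 56.6 and 71.7 in the STH libraries and a log2 fold change of -0.12 (95% interval -0.82 to 0.57).

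**Figure D3:**
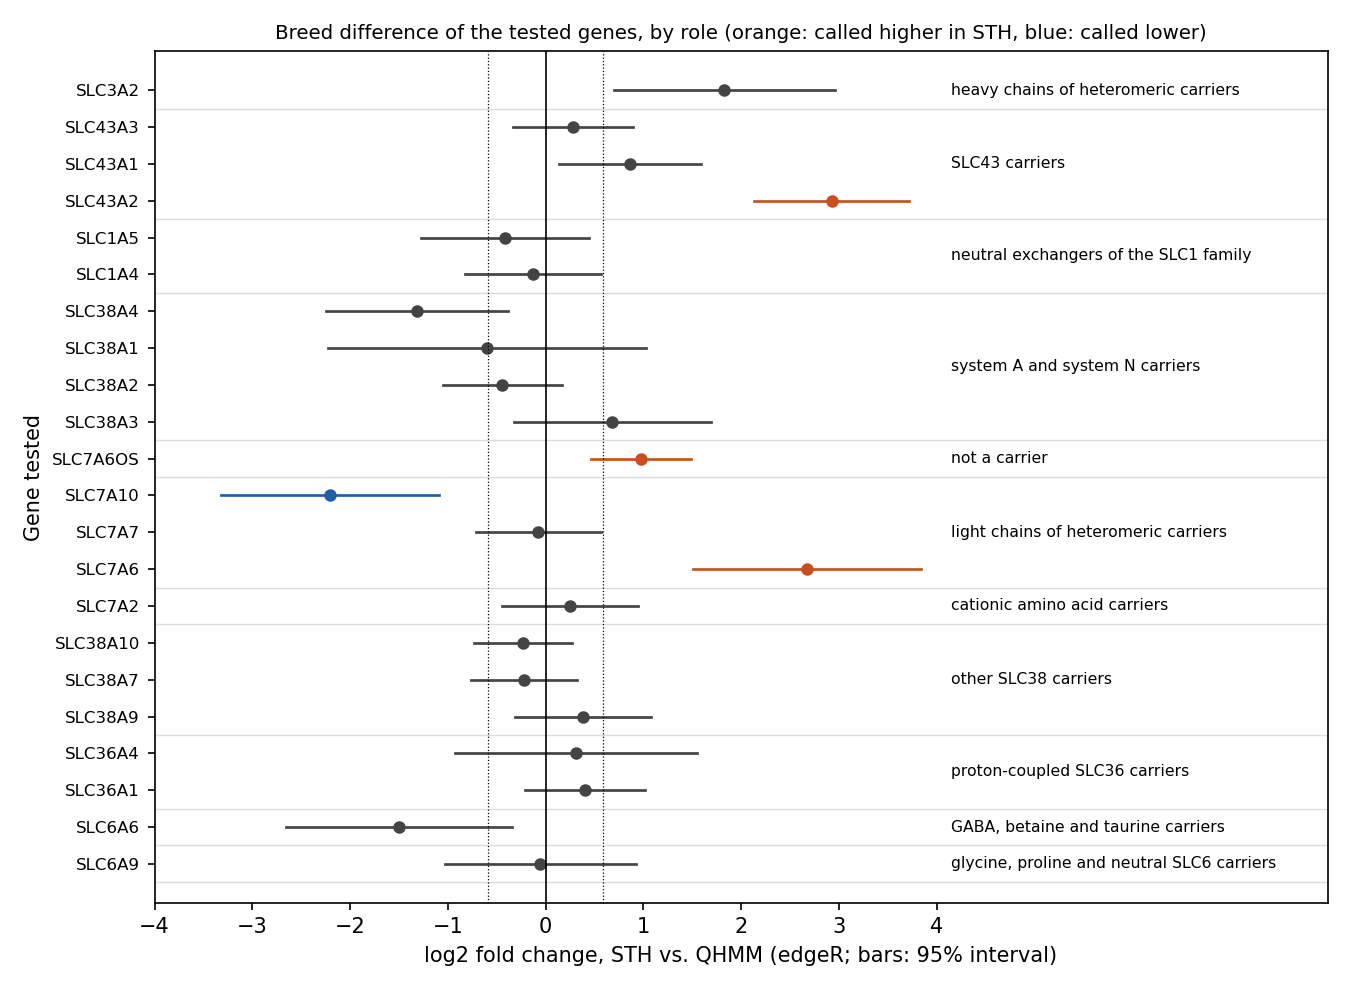
Log2 fold change STH vs. QHMM of the 22 tested rows with 95% intervals from edgeR, grouped by role, with dotted lines at a 1.5-fold change. SLC43A2, SLC7A6 and SLC7A6OS (orange) were called higher and SLC7A10 (blue) lower in STH, and the intervals of 14 rows include 0.

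Levels of different carriers can be compared only per length. By the mean over all 6 libraries, 4 rows were above 10, 14 lay between 1 and 10, 21 were below 1 but above 0, and 10 had no count. The 12 highest were SLC3A2 (46.3), SLC43A2 (32.1), SLC1A5 (12.4), SLC38A2 (10.9), SLC7A6OS (9.61), SLC7A10 (7.66), SLC43A1 (7.12), SLC7A2 (4.96), SLC38A10 (4.12), SLC36A1 (3.0), SLC7A6 (2.95) and SLC43A3 (2.87). All 4 called rows are among these 12, but the mean covers both breeds and so takes in the differences that were called. The mean level of SLC7A6, for example, was 0.80 in QHMM and 5.10 in STH.

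The order differed between the breeds. The level of SLC38A2 was 12.6 ± 2.77 in QHMM and 9.27 ± 3.2 in STH, while that of SLC43A2 was 7.46 ± 2.0 in QHMM and 56.7 ± 25.2 in STH (mean ± SD, n = 3), so the order of these carriers was opposite in the breeds, in all 6 libraries. The mean level of SLC7A10 was 12.6 ± 6.33 in QHMM and 2.7 ± 1.79 in STH, and that of SLC7A6 0.8 ± 0.128 in QHMM and 5.1 ± 4.25 in STH. The order of the STH means of this pair rested on STH replicate 2, since without it they were 3.58 for SLC7A10 and 2.69 for SLC7A6. In STH replicate 1 SLC7A10 (4.52) was above SLC7A6 (1.96) as in QHMM. In STH replicates 2 and 3 SLC7A6 (9.93 and 3.42) was above SLC7A10 (0.942 and 2.65). Of the summed level of the 48 carriers, SLC43A2 took 5.89% to 10.2% in QHMM and 26.2% to 35.4% in STH, and SLC3A2 took 17.8% to 23.9% in QHMM and 21.5% to 47.7% in STH. The summed level itself was 111, 95.7 and 101 in QHMM and 120.02, 303 and 161 in STH, so that STH replicate 1 was close to QHMM and STH replicate 2 was far above it.

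**Figure D4:**
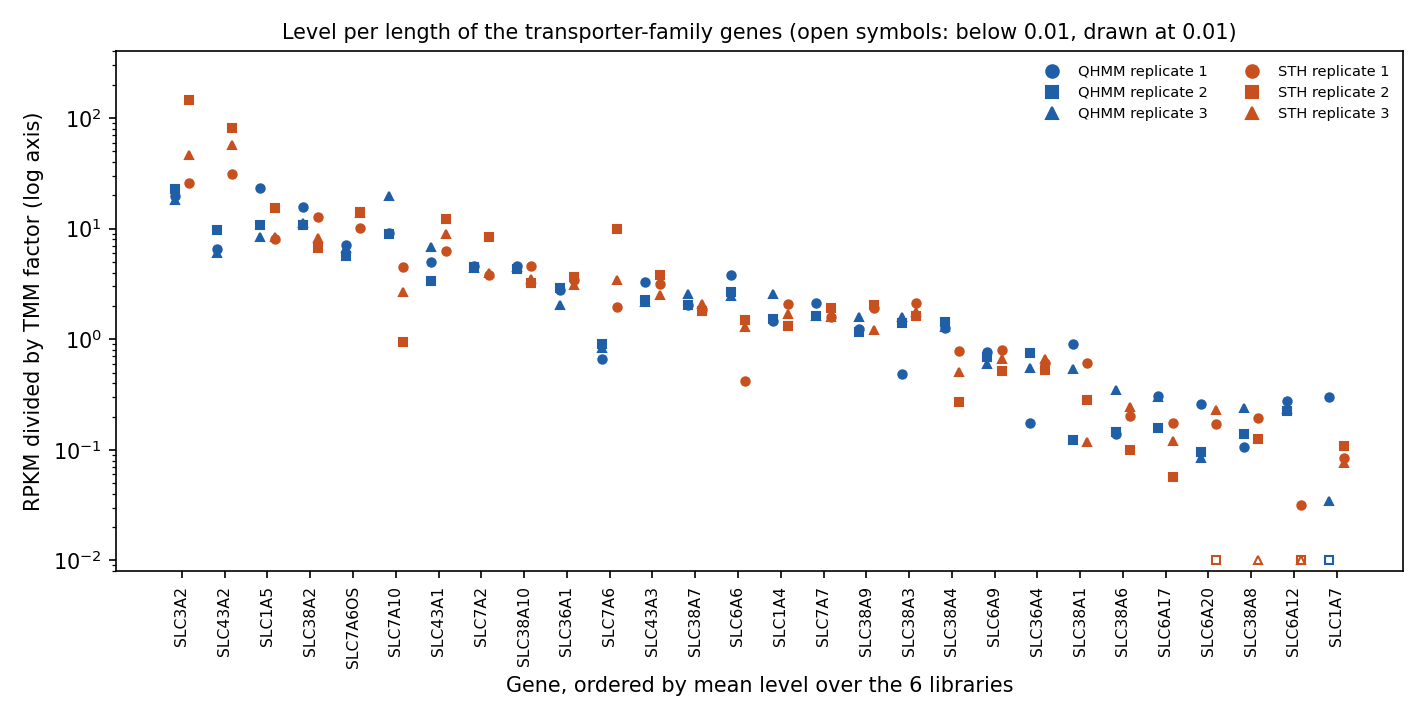
Level per length (RPKM divided by the TMM factor, log axis) of the transporter-family rows with a mean of at least 0.1, ordered by that mean, one symbol per library. SLC3A2 and SLC43A2 head the order, SLC43A2 through the STH libraries, and SLC1A5 and SLC38A2 lie between 6.72 and 23.4 in all libraries.

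The 27 rows that were not tested add little to the total. Of these, 10 had no count in any library (SLC7A3, SLC7A9, SLC7A13, SLC7A14, SLC6A3, SLC6A5, SLC6A7, SLC6A14, SLC6A19 and SLC1A6), which include the gut and kidney carriers SLC6A19 and SLC7A9 and the glutamate carrier SLC1A6 of the cerebellum. A further 11 had at most 3 counts in every library, and 6 (SLC38A6, SLC6A17, SLC6A20, SLC38A8, SLC6A12 and SLC1A7) were low. Apart from SLC6A12, whose counts are given with the SLC6 family, no comparison between the breeds is given for these low genes. In addition to the 49 rows, 40 rows with locus numbers or older names were matched to these families or described as amino acid transporters. Of these, 9 were tested. By edgeR 1 of these, SERT, was called, and by DESeq2 2, SERT and LAT2. Of the 40, 26 are copies described in the files as like the cationic amino acid carrier CAT-3 or matched to SLC7A3, among which the authors' counting could split reads. CAT-1 (SLC7A1), the ubiquitous arginine carrier, had normalized counts of 17, 14 and 13.2 in the QHMM libraries and 34.7, 47 and 16.8 in the STH libraries and a log2 fold change of 1.15 (FDR 0.196 by edgeR). EAAT1 (SLC1A3), a glutamate carrier, had a log2 fold change of -0.12 (95% interval -1.02 to 0.77).

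Genes that sense, make or break down the cargo of these carriers were examined as 7 lists, with 124 genes tested. Of these, 11 were called (8.87%), 4 higher and 7 lower in STH, against 3.45% of all genes. The lists were written with earlier results of these data known, so this share and those of the single lists describe the genes listed and test nothing. Leaving out QHMM replicate 1, STH replicate 2 or STH replicate 3 gave 7 calls, and leaving out QHMM replicate 3 gave 6. SESN1, both copies of GLUL, ASS1, GADL1 and CARNS1 were called in each of the 6 fits that left out 1 library. No gene of the amino acid deprivation response was called by edgeR among 15 tested, where 2 had an unadjusted p below 0.05, and these 2, CEBPB and CREB3L1, were called by DESeq2. The transcription factor ATF4 had a log2 fold change of 0.33, its targets DDIT3 and ASNS (asparagine synthetase) had -0.34 and 0.46, and none of the 3 had an FDR below 0.644 by edgeR. CEBPB had normalized counts of 566, 854 and 207 in the QHMM libraries and 1245, 1615 and 1743 in the STH libraries (log2 fold change 1.5, FDR 0.0766), and CREB3L1 had 180.3, 195 and 194 in the QHMM libraries and 102, 56.6 and 103 in the STH libraries (log2 fold change -1.12, FDR 0.055).

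Amino acid sensing and mTORC1 held 42 tested genes, of which 2 were called, both higher in STH (4.76%). SESN1, a sestrin that restrains mTORC1 by binding the GATOR2 complex, had normalized counts of 497, 586 and 789 in replicates 1, 2 and 3 of QHMM, and 3844, 6714 and 4414 in those of STH. The lowest STH library was over 4 times the highest QHMM library, and the log2 fold change was 3.0 (FDR 0.00231 by edgeR, SE 0.30). EIF4EBP1, a brake on translation that mTORC1 inactivates, ranged from 552 to 977 in QHMM and from 1454 to 2209 in STH, and its log2 fold change was 1.3 (FDR 0.0306, SE 0.27), and it was called in 2 of the 6 fits that left out 1 library (FDR up to 0.107 without QHMM replicate 1 or 3 or STH replicate 2 or 3). The GATOR2 subunits WDR24 and SEC13 and the folliculin partner FNIP2 had log2 fold changes of 0.49, 0.50 and 0.61 with unadjusted p below 0.05, and LAMTOR2 of the lysosomal Ragulator complex and TBC1D7 of the tuberous sclerosis complex had -0.58 and -0.94, none of which passed the FDR. The median of the list was 0.02, the same as that of all genes.

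Metabolism of glutamine, glutamate and alanine held 5 called genes among 16 tested (31.2%), 2 higher and 3 lower in STH. Both higher rows are copies of GLUL, glutamine synthetase. LOC101102999 ranged from 1995 to 3013 in QHMM and from 8609 to 17499 in STH, and its log2 fold change was 2.29 (FDR 0.00684 by edgeR, SE 0.32), and LOC101120934 had 2.47 (FDR 0.0108, SE 0.37). Reads could be split between the copies, so their separate counts are uncertain. Lower in STH were ASS1, which makes argininosuccinate on the way to arginine (-2.1, FDR 0.0123), ABAT, which breaks down GABA (-2.17, FDR 0.0201), and OAT, which links ornithine to glutamate (-1.23, FDR 0.0292). The call of ABAT was lost without QHMM replicate 3 or STH replicate 2 (FDR up to 0.0765), and that of OAT without QHMM replicate 1 or 3 or STH replicate 2 or 3 (FDR up to 0.0959). ABAT ranged from 73.7 to 146 in QHMM and from 13.9 to 32.5 in STH. ALDH5A1, the next enzyme of GABA breakdown, ranged from 1168 to 2017 in QHMM and from 678 to 996 in STH. Its log2 fold change of -0.84 had an FDR of 0.119 by edgeR, which did not pass. GPT2, the mitochondrial alanine aminotransferase, had -1.1 (FDR 0.055 by edgeR), and the proline synthesis enzymes ALDH18A1 and PYCR1 had 0.83 (FDR 0.0582) and -0.82 (FDR 0.18). DESeq2 called 8 genes of the list, namely ALDH5A1, GPT2 and ALDH18A1 in addition to the 5 called by edgeR.

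Breakdown of branched-chain amino acids, the cargo of SLC43A2, held 21 tested genes, of which 1 was called (4.76%). PPM1K, the phosphatase that activates the branched-chain keto acid dehydrogenase, had normalized counts of 876, 658 and 1109 in replicates 1, 2 and 3 of QHMM, and 248, 45.9 and 58.3 in those of STH. QHMM libraries were all above the STH libraries, of which STH replicate 1 was highest, and the log2 fold change was -2.89 (FDR 0.0225 by edgeR, SE 0.55). Without QHMM replicate 1 or 3 or STH replicate 3 the call was lost (FDR up to 0.0672), and the log2 fold change lay between -4.09 and -2.53 over the 6 fits. Of the 21 genes, 19 had a log2 fold change below 0, with a median of -0.29, and the 7 with an unadjusted p below 0.05 (33.3%, against 19.2% of all genes) were all lower in STH. On the RPKM scale of limma-trend, where the median of all genes was itself 0.12 to 0.14, 16 of the 21 were below 0. Beside PPM1K, the other 6 with an unadjusted p below 0.05 were the dehydrogenase subunit DBT (-1.03), IVD (-0.83) of leucine breakdown, ALDH6A1 (-0.69) of valine breakdown, and PCCA (-0.62), PCCB (-0.76) and MUT (-0.78) of propionate metabolism. None of the 6 passed the FDR by edgeR. DESeq2 called 3 genes of the list, PPM1K, IVD and MUT.

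Synthesis of taurine, carnosine and polyamines held 3 called genes among 14 tested (21.4%), all lower in STH. GADL1, a decarboxylase that makes beta-alanine, had normalized counts of 2199.7, 1791 and 1871 in replicates 1, 2 and 3 of QHMM, and 405, 300.2 and 381 in those of STH. The breeds were far apart and tight, with a log2 fold change of -2.43 (FDR 0.00208 by edgeR, SE 0.23). CARNS1, which joins beta-alanine and histidine to carnosine, ranged from 257 to 347 in QHMM and from 19.2 to 71.7 in STH (log2 fold change -2.59, SE 0.41, FDR 0.0123), and AZIN1, which frees ornithine decarboxylase from its antizyme, ranged from 646 to 883 in QHMM and from 177 to 421 in STH (log2 fold change -1.41, FDR 0.0401). AZIN1 kept its call only without STH replicate 1 (FDR up to 0.107 without any other library). The polyamine enzymes ODC1, SRM and SMS had log2 fold changes of -0.62, 0.49 and 1.17 with unadjusted p below 0.05, and none passed the FDR.

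EdgeR called no gene among the 8 tested carriers of other families or the 9 tested genes for the trafficking of carriers, although 3 and 4 of them had an unadjusted p below 0.05. DESeq2 called 2 of the former (SLC15A4 and SLC22A16) and 1 of the latter (VDUP1). SLC16A10 (TAT1), a uniporter of aromatic amino acids, had normalized counts of 42.9, 36.3 and 41.6 in the QHMM libraries and 79.2, 156 and 42.6 in the STH libraries and a log2 fold change of 1.2. SLC22A16, a carnitine carrier, and SLC15A4, a lysosomal carrier of histidine and peptides, had log2 fold changes of 1.29 (FDR 0.0528 by edgeR) and 0.99 (FDR 0.112). SGK1, a kinase that holds carriers at the cell surface, and VDUP1, which is TXNIP and promotes the removal of glucose carriers from it, had 0.99 and 1.09. BSG and CD44, membrane glycoproteins that partner with carriers, had -0.71 and -0.64.

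**Figure D5:**
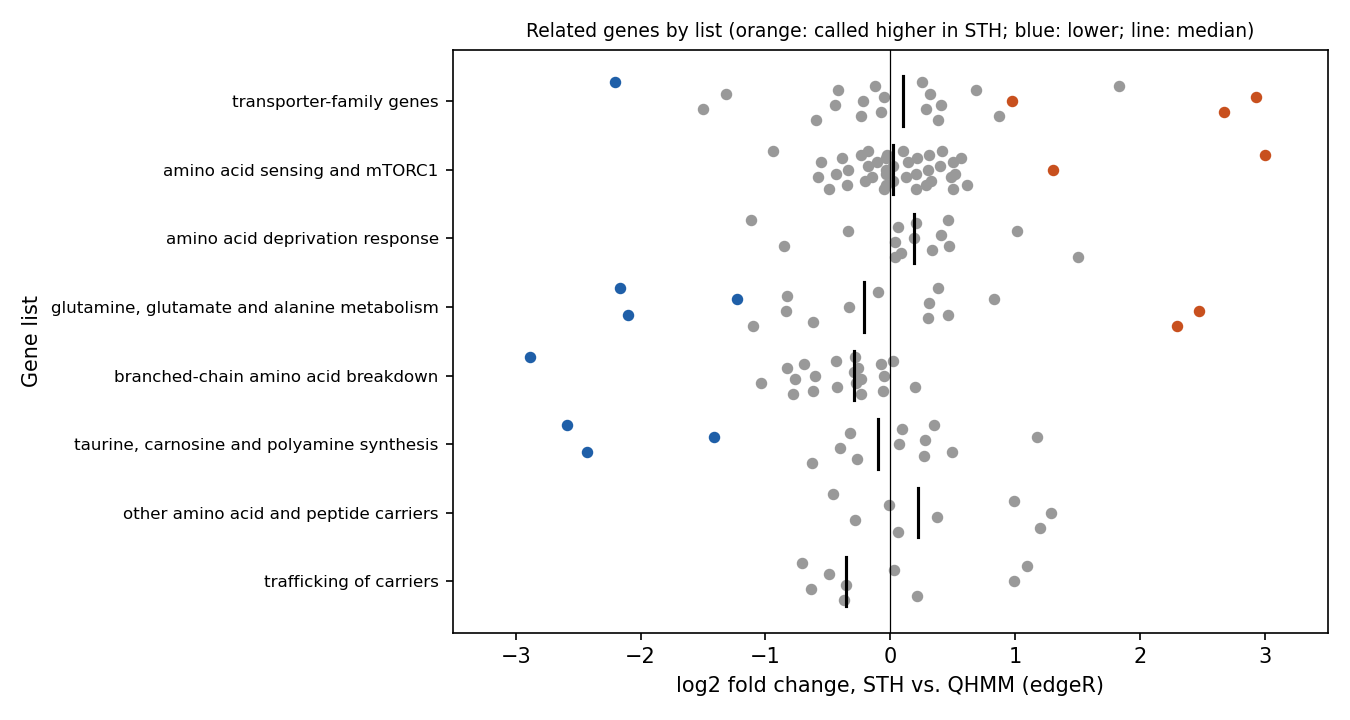
Log2 fold change STH vs. QHMM of every tested gene in the transporter families and in the 7 related lists, one point per gene, with the median of each list as a black line. Genes called by edgeR are orange (higher in STH) or blue (lower), the branched-chain list lies almost wholly below 0, and the deprivation list holds no gene called by edgeR, while DESeq2 called CEBPB and CREB3L1.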

How the data were processed

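Longissimus muscle RNA of 3 QHMM and 3 STH sheep was sequenced, with 1 library per animal and groups taken from the labels. The authors mapped filtered reads to the sheep genome (Oar 3.1 in the submitters' processing notes), kept uniquely mapped reads and deposited raw counts per gene, not normalized. The RPKM values that the authors deposited divide the counts by gene length and by the library total. The aligner, the counting program and its use of strand are not given in the sources used here.

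Counts were tested in R 4.3.3 with edgeR 4.0.16 (TMM, filterByExpr, glmQLFit and glmQLFTest, two-sided, breed as the only term, Benjamini-Hochberg over 12506 genes). A call needs an FDR below 0.05 and a fold change above 1.5, the thresholds of the study. EBSeq, the program of the study, was not installed. The SE was obtained from the log2 fold change and the F statistic. Normalized counts are scaled to a common effective library size, and levels per length are the deposited RPKM divided by the TMM factor. The ratio of SLC6A12 carries an exact 95% interval on its counts. Library totals of 10982191 to 14334544 set the precision, and genes with at most 3 counts in every library were taken as not detected.

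Alternatives were DESeq2 1.42.0, upper-quartile normalization, other filters and thresholds, robust dispersions, the replicate number as a block, limma-trend (limma 3.58.1) on log2(RPKM) with a pseudocount of 1 or 0.1, for genes that reached an RPKM of 1 in 3 or more libraries, leaving out the 20 most abundant genes, and leaving out libraries. The pair QHMM replicate 1 and STH replicate 2 was left out together after the data were seen. Scripts were tested on simulated data. Python 3.11.15 with pandas 2.3.3, NumPy 2.4.6, SciPy 1.17.1 and matplotlib 3.10.9 was used for summaries and plots.

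The transporter families and the related lists were chosen with earlier results of these data known. Named with values are called rows, rows with p below 0.05, rows whose breeds do not overlap, the 12 highest levels, SLC3A2, SLC7A5, SLC1A5, SLC38A2 and SLC38A9, and genes of the related lists that were called, had p below 0.05 or act at the same step. LAT2, SERT, CAT-1, EAAT1, SLC6A12, the other low members and the neighbouring genes were named after their values were seen. RefSeq gene order (ARS-UI_Ramb_v3.0) was used only for neighbours, and 48 of the 49 symbols matched it. In addition, 1 row that the name rule takes is not reported here.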

Additional observations from a re-analysis of the deposited data

How the results depend on the processing

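Of 385 values of the 22 tested rows under alternatives, 17 changed sign, all of them in rows far from the threshold. SLC43A2 was called in 16 of 17 alternatives (FDR 0.0604 without QHMM replicate 2 and STH replicate 3), SLC7A6 in 10, SLC7A10 in 7, SLC7A6OS in 6 and SLC3A2 in 2. The transporter rows called were 4, and 1 with limma-trend on log2(RPKM + 1) and on log2(RPKM + 0.1) or at an FDR below 0.01, and 1 without QHMM replicate 1 and STH replicate 2. Without QHMM replicate 2 and STH replicate 3 edgeR called 0, where 6 had an unadjusted p below 0.05. Transporter calls were 1 to 5 over the fits without 1 library, while the 11 related genes were 6 to 13 and the 432 genes called in all were 131 to 535. Related genes called were 21 with DESeq2, 3 at an FDR below 0.01, 1 without QHMM replicate 2 and STH replicate 3, and 5 without QHMM replicate 1 and STH replicate 2, where all genes gave 973, 41, 11 and 122. Without a filter on low counts 806 genes were called. The split of all called genes was 203 higher and 229 lower, but 212 and 134 with limma-trend on log2(RPKM + 1) and 203 and 124 on log2(RPKM + 0.1), where the median of all genes was 0.12 and 0.14 in place of 0.02, and related genes were 6 higher and 5 lower, and 5 and 5. The cause of these shifts was not tested. Values that turned were SLC1A4 (0.00217 and 0.00907) and SLC7A7 (0.0333 and 0.0486) with limma-trend, and over the fits without 1 library SLC1A4 (-0.32 to 0.18), SLC7A7 (-0.19 to 0.0494), SLC1A5 (-0.80 to 0.13), SLC6A9 (-0.24 to 0.0744), SLC36A4 (-0.13 to 0.74), SLC38A1 (-1.39 to 0.0263) and SLC7A2 (-0.23 to 0.43). With QHMM replicate 1 and STH replicate 2 both left out, SLC7A2 was -0.21, SLC6A9 0.17, SLC36A4 -0.0454 and SLC38A1 0.15. With the replicate number as a block, 3 transporter rows, 12 related genes and 457 genes in all were called, and SLC7A6OS lost its call (FDR 0.0782). Same-numbered libraries correlated at 0.23, -0.04 and -0.13 in their deviations from the breed means, and not every library correlated best with its own number. With so few libraries these values cannot show whether the numbers pair the animals.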
